A study of Homo sapiens with 6 samples.

Results

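Interferons are secreted proteins that warn cells of infection. Binding of an interferon to its receptor activates the kinases JAK1 and TYK2, which phosphorylate STAT2, and a complex that holds STAT2 and IRF9 enters the nucleus and switches on interferon-stimulated genes. Their products bind foreign RNA, block virus entry or release, or restrict replication, and many T cells and T cell lines keep a part of this programme on without added interferon. The 37 genes described here are interferon response and restriction genes chosen by name, with all 37 found by symbol among 39012 rows of the expression table. They comprise 6 transcription factors of the pathway, 11 genes of RNA sensing and RNA-directed defence, 7 genes acting on entry, release or replication of viruses, 5 genes of the ISG15 system and the TRIM family, 3 components of nuclear bodies and 5 other induced genes.

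RNA-seq libraries came from Jurkat cells, an established human T cell acute lymphoblastic leukaemia line. One group of 3 libraries was from cells with stable overexpression of SCML4, a Polycomb protein of the Scm-like family, and the other group of 3 was from control cells carrying an empty vector (EV). Every library, EV included, is from cells stimulated for 6 h with the phorbol ester PMA (100 ng/ml) together with ionomycin (1 µM), which activate protein kinase C and raise intracellular calcium, so the comparison holds no unstimulated and no interferon-treated cells. The labels' cell type field also calls the line an ouabain-induced leukemia line, while their treatment field names PMA and ionomycin only. The sources used here do not say which promoter drove SCML4 or whether each line was a clone or a pool, and an effect of SCML4 cannot be told apart from any other difference between the 2 lines. Because the labels do not name separate cultures behind the 3 libraries of each group, p-values refer to library-to-library spread alone, part or all of which may be technical.

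Levels are in CPM, the number of a gene's reads among 1000000 of its library, from whole reads recovered from the deposited FPKM values, with library totals of 8953671 to 10336597 reads. Differences are SCML4 minus EV on log2(CPM + 1), a scale that understates the change of genes at a few CPM. SCML4 itself had 570, 657 and 506 reads in the SCML4 libraries, against 7, 2 and 1 in the EV libraries, a pooled ratio of 173 with a 95% exact counting interval of 93.8 to 361. T cell markers were abundant in every library, their summed level being 3350 to 3460 CPM with SCML4 and 2970 to 3280 CPM in EV. Of the other lineages' markers PAX5, LYZ, HBB, EPCAM and CDH1 had 0 reads throughout. The B cell list summed to 30.7 to 33.0 CPM with SCML4 and 21.6 to 33.9 CPM in EV, nearly all of it CD79A, and each of the myeloid, NK cell, erythroid and epithelial or stromal lists summed to at most 2.68 CPM in any library. EV replicate 1 was unlike the rest: it lay at -30.3 on the first principal component (36.5% of the variance), with the others between 2.20 and 8.19. Values without this library are therefore added for the counts and for genes whose difference it moves.

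None of the interferon genes passed the test between SCML4 and EV cells. Of the 37 members, 33 had a mean of at least 10 reads per library and entered a fit across 14161 genes (limma-trend, Benjamini-Hochberg adjustment over all genes). At an adjusted p under 0.05, 0 of these 33 were called, against 0.00706% of all genes tested, the single gene being SCML4. The smallest adjusted p of a member was 0.866, and in the limma-voom fit with library weights, where 14 genes or 0.0989% were called, it was 0.368. Members with an unadjusted p under 0.05 numbered 3, USP18, IFI35 and IRF2, each higher with SCML4, where the background was 5.27% of genes. Without EV replicate 1 there were 4, with USP18, IRF2 and IFIH1 higher and BST2 lower with SCML4, against 6.7% of genes, and again 0 called at an adjusted p under 0.05 where 14 genes, or 0.099%, were called in all. With library weights 5 members had an unadjusted p under 0.05, against 8.49% of genes. The median half-width of the 95% interval was 0.30 in log2 over the members tested. A difference smaller than a member's own half-width has an interval that includes 0. The half-width varied among members, the interval being -0.18 to 0.13 for ADAR and -0.65 to 0.46 for IRF9. The interval is unadjusted, and a call at an adjusted p needed a larger difference still: USP18, at 0.64, was not called.

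**Figure D1:**
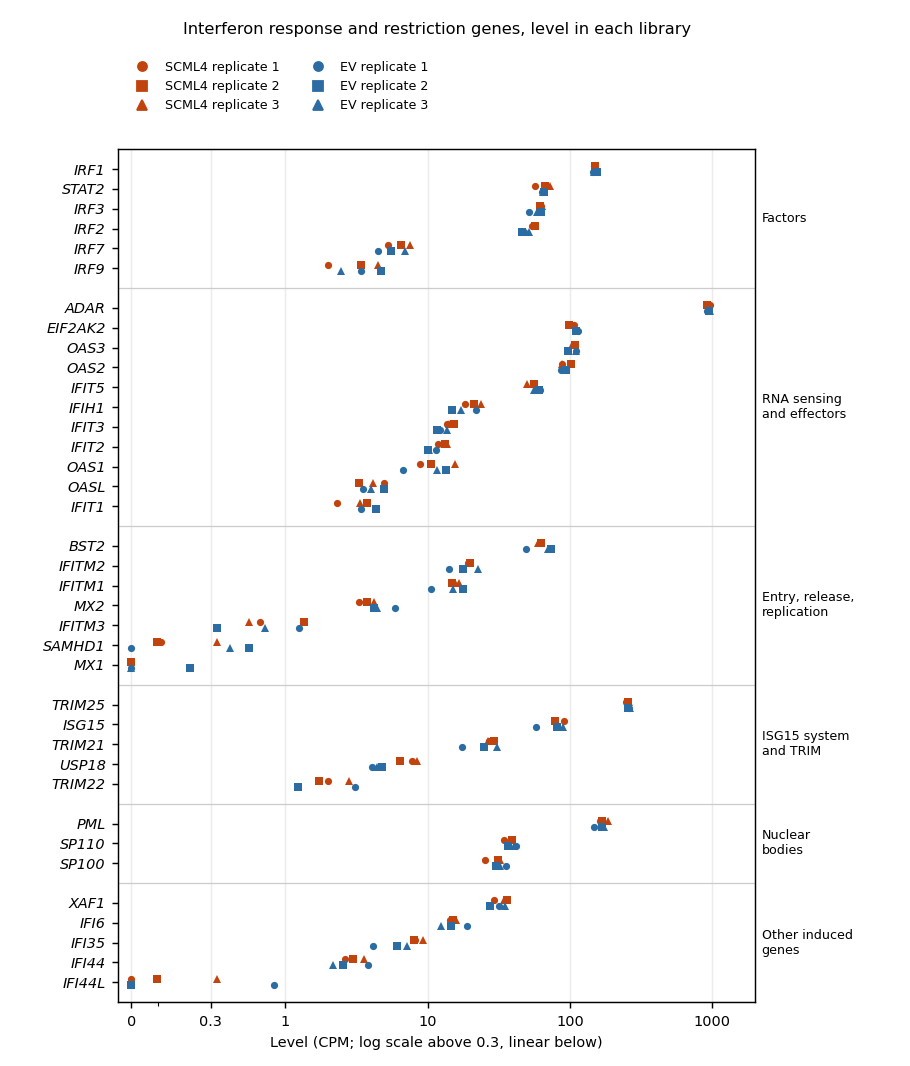
Level of each of the 37 members in each library, in CPM on an axis that is logarithmic above 0.3 and linear below, grouped by role. Colours are the groups and shapes the replicates. Members span from ADAR at 937 CPM on average to MX1 at 0.0372 CPM, and for most members the colours overlap.

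As a whole the members were present at nearly equal amounts in both groups. Their summed level was 2470 ± 14.1 CPM with SCML4 and 2460 ± 76.9 CPM in EV (mean ± SD, n = 3 each). EV replicate 1 was the lowest, at 2380 CPM. EV replicates 2 and 3 held 2480 and 2530 CPM, against 2460 to 2490 CPM with SCML4. In bulk RNA, fewer cells with a transcript and less of it in each cell cannot be told apart. ADAR, which edits adenosine to inosine in double-stranded RNA and so keeps a cell's own RNA from being sensed as foreign, made up 38.0% of this sum. Levels on average exceeded 100 CPM in 6 members, lay between 10 and 100 CPM in 18 and between 1 and 10 CPM in 9, and were under 1 CPM in 4. Divided by exonic length, to compare genes, the order was led by ADAR at 96.7 CPM per kilobase, ISG15 at 84.5, BST2 at 56.3, TRIM25 at 27.0 and IRF1 at 19.1. At the low end of the members tested stood TRIM22 at 0.335 and MX2 at 0.331 CPM per kilobase.

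Levels differed widely among members in these cells, all of them stimulated with PMA and ionomycin. MX1, a dynamin-like GTPase against influenza and other viruses, had 2 reads in EV replicate 2 and 0 in the other 5 libraries, where 0 reads leave room for up to 3, or 0.335 CPM at the lowest depth. IFI44L had 0, 1 and 3 reads with SCML4, against 8, 0 and 0 in EV, so all its EV reads came from EV replicate 1. SAMHD1, a dNTP hydrolase that limits retroviral reverse transcription, had 1, 1 and 3 reads with SCML4, against 0, 5 and 4 in EV. IFITM3, which blocks virus entry at endosomes, had 6, 14 and 5 reads with SCML4, against 12, 3 and 7 in EV. These 4 members fell below the filter, show no separation between groups at counts this low, and were not tested. The related genes MX2, IFI44 and IFITM2 were above the filter, at 4.32, 2.97 and 18.8 CPM over the 6 libraries.

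The values of the groups did not overlap in 6 of the 33 members tested, or 18.2%, against 11.6% of all genes tested. SCML4 was the higher group in 4 of them (background 6.28%) and the lower in 2 (background 5.36%). For each of the 6, exact permutation of the group labels (two-sided) gave a p of 0.1, below which 3 against 3 cannot go. Groups of 3 that do not overlap always give this value, so it adds nothing to the choice of these 6.

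USP18 showed the largest difference of the members. It removes ISG15 from proteins and blocks signalling at the type I interferon receptor. USP18 stood at 7.72, 6.39 and 8.38 CPM in SCML4 replicates 1 to 3, against 4.05, 4.79 and 4.44 CPM in EV replicates 1 to 3. Each SCML4 library held more than any EV library, and the EV values had an SD of 0.373 CPM. The log2 difference was 0.64 (95% interval 0.26 to 1.02). In limma-trend its unadjusted p was 0.00287 and its adjusted p 0.866. Without EV replicate 1 the difference was 0.59, and the alternatives gave 0.35 (on log2(FPKM + 1)) to 0.74. These levels rest on 66 to 75 reads with SCML4 and 39 to 43 in EV. USP41, a near-identical copy, was counted separately at 6, 0 and 1 reads with SCML4, against 3, 1 and 0 in EV; the sources used here do not say how reads shared by such copies were assigned.

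IFI35, a leucine zipper protein that binds NMI, was the second of these. It stood at 8.16, 8.03 and 9.27 CPM with SCML4, against 4.15, 6.13 and 7.13 CPM in EV. The SCML4 values lay close together, while EV replicate 1 was the lowest of all. The log2 difference was 0.50 (95% interval 0.09 to 0.92), or 0.31 without EV replicate 1. Its unadjusted limma-trend p was 0.0209 with all libraries and 0.0986 without that one. NMI itself, its binding partner, stood at 30.3 ± 1.16 CPM with SCML4 and 34.7 ± 1.82 CPM in EV, a log2 difference of -0.19 (adjusted limma-trend p of 0.866), the SCML4 values all being the lower.

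IRF2, a factor that binds the same DNA elements as IRF1 and mostly represses them, stood at 53.9, 56.6 and 57.0 CPM with SCML4, against 47.3, 46.3 and 51.4 CPM in EV. The lowest SCML4 value lay just above EV replicate 3, the highest EV value, and the log2 difference was 0.20 (95% interval 0.01 to 0.40), or 0.19 without EV replicate 1. IRF1, the activating counterpart, stood at 147, 151 and 150 CPM with SCML4, against 146, 154 and 147 CPM in EV. The 6 values of IRF1 overlapped, and the interval of its difference reached from -0.16 to 0.16.

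IFIT2, one of the IFIT proteins that bind viral RNA and hinder its translation, was the last member with higher values throughout, at 11.9, 13.3 and 13.6 CPM with SCML4, against 11.4, 10.1 and 10.2 CPM in EV. Its log2 difference was 0.26 (95% interval -0.04 to 0.57). In contrast IFIT5, of the same family, had the lower values with SCML4, at 54.8, 56.1 and 49.8 CPM, against 61.4, 60.7 and 56.2 CPM in EV, a log2 difference of -0.15 (95% interval -0.34 to 0.05). The highest SCML4 value and the lowest EV value of IFIT5 nearly touched. EIF2AK2, which encodes the kinase PKR that stops translation on sensing double-stranded RNA, stood at 106, 98.4 and 104 CPM with SCML4, against 114, 111 and 110 CPM in EV. Its log2 difference was -0.12 (95% interval -0.28 to 0.05), the second of the members with lower values throughout.

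**Figure D2:**
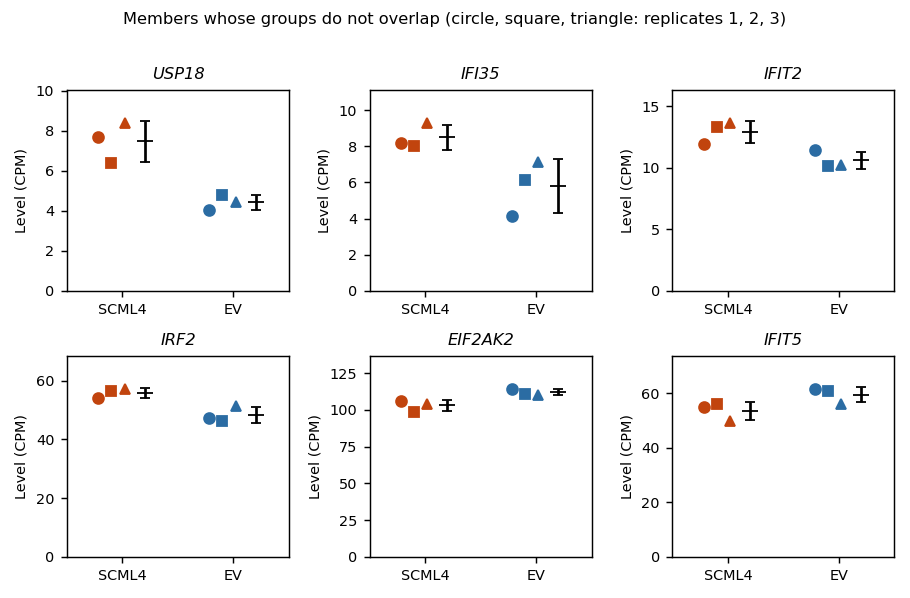
Level in CPM of the 6 members whose 3 values in one group all lie above the 3 of the other, with SCML4 libraries on the left and EV libraries on the right of each panel and each axis starting at 0. Points are libraries, and the black bar is the mean ± SD (n = 3). USP18, IFI35, IFIT2 and IRF2 are higher with SCML4, EIF2AK2 and IFIT5 lower, and none passed at an adjusted p under 0.05.

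The other IFIT genes had overlapping groups. IFIT3 stood at 13.7, 15.4 and 14.1 CPM with SCML4, against 12.3, 11.6 and 13.8 CPM in EV. IFIT1, the member that binds RNA lacking 2'-O-methylation at the cap, stood at 2.32, 3.77 and 3.35 CPM with SCML4, against 3.43, 4.35 and 4.34 CPM in EV. Its difference of -0.29 (95% interval -0.74 to 0.16) rested on 21 to 42 reads per library, and was -0.38 without EV replicate 1. The intervals of all 4 IFIT genes included 0, and differences among them were not tested.

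To show where the interferon-responsive elements of these genes lie, 4 promoters were read from the RefSeq promoter table (build GRCh38.p14), which held 26 of the 37 members by symbol. The other 11, USP18, IRF2, IFIT2 and MX2 among them, were not searched. The sequences run 5' to 3' on the strand of the gene, from 250 bases before to 50 bases after the start, and belong to the 4 members of smallest unadjusted p among those holding the interferon-stimulated response element searched as GAAA, any 2 bases and GAAA again, on either strand. Capitals mark each match, overlapping ones being joined. They lie at chr10:89414318-89414617 (plus strand) for IFIT5, chr2:37156931-37157230 (minus strand) for EIF2AK2, chr2:162318635-162318934 (minus strand) for IFIH1 and chr10:89392373-89392672 (plus strand) for IFIT1.
IFIT5: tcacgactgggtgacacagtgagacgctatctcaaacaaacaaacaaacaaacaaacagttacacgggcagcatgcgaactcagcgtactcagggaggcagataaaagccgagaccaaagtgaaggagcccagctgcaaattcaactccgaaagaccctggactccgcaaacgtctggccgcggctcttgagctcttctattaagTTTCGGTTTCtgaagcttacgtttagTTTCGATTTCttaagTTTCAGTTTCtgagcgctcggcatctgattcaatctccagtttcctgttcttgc
EIF2AK2: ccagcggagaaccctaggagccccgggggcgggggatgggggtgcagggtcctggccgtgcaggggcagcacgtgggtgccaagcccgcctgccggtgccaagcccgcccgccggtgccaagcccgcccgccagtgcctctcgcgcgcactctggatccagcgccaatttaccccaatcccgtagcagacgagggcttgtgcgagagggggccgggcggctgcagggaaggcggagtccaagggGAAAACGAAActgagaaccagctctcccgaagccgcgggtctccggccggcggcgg
IFIH1: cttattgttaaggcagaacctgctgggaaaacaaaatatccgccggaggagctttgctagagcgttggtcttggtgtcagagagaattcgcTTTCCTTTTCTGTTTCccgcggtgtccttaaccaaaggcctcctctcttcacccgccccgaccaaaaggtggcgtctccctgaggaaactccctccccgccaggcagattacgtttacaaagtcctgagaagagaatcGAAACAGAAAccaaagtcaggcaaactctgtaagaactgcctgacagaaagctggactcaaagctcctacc
IFIT1: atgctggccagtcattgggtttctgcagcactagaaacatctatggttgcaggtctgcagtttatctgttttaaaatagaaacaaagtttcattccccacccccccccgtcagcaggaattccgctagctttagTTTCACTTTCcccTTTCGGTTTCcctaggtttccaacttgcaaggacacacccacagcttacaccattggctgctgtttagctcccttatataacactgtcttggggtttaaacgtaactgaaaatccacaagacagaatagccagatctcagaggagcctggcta

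The IFIT5 promoter held 3 matches, that of EIF2AK2 1, that of IFIH1 3 and that of IFIT1 2. Of 35 promoters of members, 18 held this motif, or 51.4%, against 3.57% of all 35116 promoters of that length. The gamma-activated site TTCNNNGAA, which reads alike on both strands, was found in 22.9% of the members' promoters and in 7.66% of all. The 15 members with the response element spanned from 0.0372 CPM (MX1) to 107 CPM (EIF2AK2), so that carrying the letters went with no one level in these cells. Among members tested that had a promoter to search, which leaves out USP18, the median difference was 0.06 in the 12 with the element. It was -0.01 in the 10 without it. Without EV replicate 1 these medians were -0.015 and -0.035.

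The transcription factors of the pathway were detected in every library and none was called. STAT2 stood at 56.8, 66.8 and 72.6 CPM with SCML4, against 63.9, 65.6 and 64.6 CPM in EV. The EV libraries agreed closely and lay within the wider SCML4 range, with a difference of 0.01 (95% interval -0.20 to 0.22). IRF9, which gives the complex its DNA binding, stood at 1.99, 3.39 and 4.47 CPM with SCML4, against 3.43, 4.68 and 2.48 CPM in EV, on 18 to 42 reads per library. Its groups overlapped fully, and the interval of the difference, -0.65 to 0.46, was wide. IRF3, which responds to RNA and DNA sensors, averaged 62.3 ± 1.33 CPM with SCML4 and 57.4 ± 5.79 CPM in EV. IRF7, the interferon-induced amplifier, averaged 6.46 ± 1.15 CPM with SCML4 and 5.65 ± 1.23 CPM in EV. Their differences were 0.12 and 0.17, and 0.04 for both without EV replicate 1.

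Among the other RNA-directed genes, IFIH1, which encodes the sensor MDA5 of long double-stranded RNA, stood at 18.3, 21.2 and 23.7 CPM with SCML4, against 22.0, 14.8 and 17.1 CPM in EV. EV replicate 1 was the high EV value. The difference was 0.23 (95% interval -0.11 to 0.56) with all libraries and 0.37 without EV replicate 1, where the unadjusted p was 0.0167 and the adjusted p 0.615 in limma-trend. OAS1, a sensor that activates RNase L, stood at 8.83, 10.5 and 15.6 CPM with SCML4, against 6.75, 13.4 and 11.6 CPM in EV. Each group held a low replicate 1, and the groups overlapped. Its difference was 0.14, and -0.12 without EV replicate 1. The related OAS2 averaged 92.6 ± 7.41 CPM with SCML4 and 91.6 ± 4.43 CPM in EV, and OAS3 107 ± 3.02 CPM with SCML4 and 106 ± 7.38 CPM in EV. ADAR stood at 961, 912 and 917 CPM with SCML4, against 922, 953 and 960 CPM in EV, with an interval of -0.18 to 0.13, among the narrowest of the members.

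Of the genes that act on entry and release, BST2 (tetherin, which holds budding virus at the cell surface) stood at 63.1, 63.0 and 59.4 CPM with SCML4, against 49.3, 73.0 and 70.1 CPM in EV. The SCML4 libraries lay between EV replicate 1 and the other 2 EV libraries. The BST2 difference was -0.03 with all libraries and -0.21 without EV replicate 1, at an adjusted limma-trend p of 0.641. IFITM1 stood at 15.1, 14.8 and 16.6 CPM with SCML4, against 10.6, 17.8 and 15.0 CPM in EV, and IFITM2 at 19.2, 19.9 and 19.2 CPM with SCML4, against 14.2, 17.6 and 22.7 CPM in EV. In both, the SCML4 values fell inside the EV range. The 3 IFITM genes are close paralogs on chromosome 11, so their separate values depend on how reads matching several of them were counted, which the sources used here do not state. MX2, a restriction factor of HIV-1 at nuclear entry, stood at 3.31, 3.77 and 4.24 CPM with SCML4, against 5.92, 4.24 and 4.44 CPM in EV. The difference was -0.29, and -0.17 without EV replicate 1, on 30 to 57 reads per library.

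ISG15, a ubiquitin-like protein that is joined to other proteins and secreted, stood at 91.2, 78.8 and 80.0 CPM with SCML4, against 57.5, 80.8 and 88.7 CPM in EV. Apart from EV replicate 1, which was the lowest, the libraries of both groups shared one range. The difference was 0.16 (95% interval -0.13 to 0.45), and -0.03 without EV replicate 1. Of the TRIM ubiquitin ligases, TRIM25, which acts on RIG-I, was steady at 254 ± 5.63 CPM with SCML4 and 260 ± 4.62 CPM in EV, while TRIM21, a cytosolic antibody receptor, averaged 27.5 ± 1.65 CPM with SCML4 and 24.3 ± 6.48 CPM in EV, and TRIM22 2.17 ± 0.550 CPM with SCML4 and 1.86 ± 1.09 CPM in EV. Without EV replicate 1, the lowest library for TRIM21 and the highest for TRIM22, the difference was -0.00 for TRIM21, against 0.21 with it, and 0.49 for TRIM22, against 0.20 with it. PML, the organiser of nuclear bodies, averaged 172 ± 11.0 CPM with SCML4 and 163 ± 13.1 CPM in EV. The PML difference was 0.08, or 0.01 without EV replicate 1. Its partners SP100 and SP110 had differences of -0.14 and -0.08, or -0.08 and -0.05 without that library.

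Differences over the 33 members tested ran from -0.29 to 0.64, with 21 above 0 (63.6%) and a median of 0.078, against 52.4% above 0 and a median of 0.008 over all genes tested. The majority above 0 did not remain without EV replicate 1, where 14 of the 33 were above 0 (42.4%) and the median was -0.015, against 51.7% and 0.006 over all genes. Leaving out SCML4 replicate 3 or EV replicate 3 gave medians of 0.029 and 0.041, and leaving out SCML4 replicate 1 gave 0.119. The sign differed between the 2 fits in 9 members, among them ISG15, OAS1, IFITM1, IFITM2 and TRIM21. The summed T cell markers, which are no part of the members, were also higher with SCML4 (3390 ± 61.6 CPM, against 3140 ± 161 CPM in EV). EV replicate 1 was the lowest at 2970 CPM, with EV replicates 2 and 3 at 3280 and 3180 CPM. Of the 11 markers tested, 9 had a difference above 0, or 7 without EV replicate 1. The part of these markers in the members' values was not tested.

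**Figure D3:**
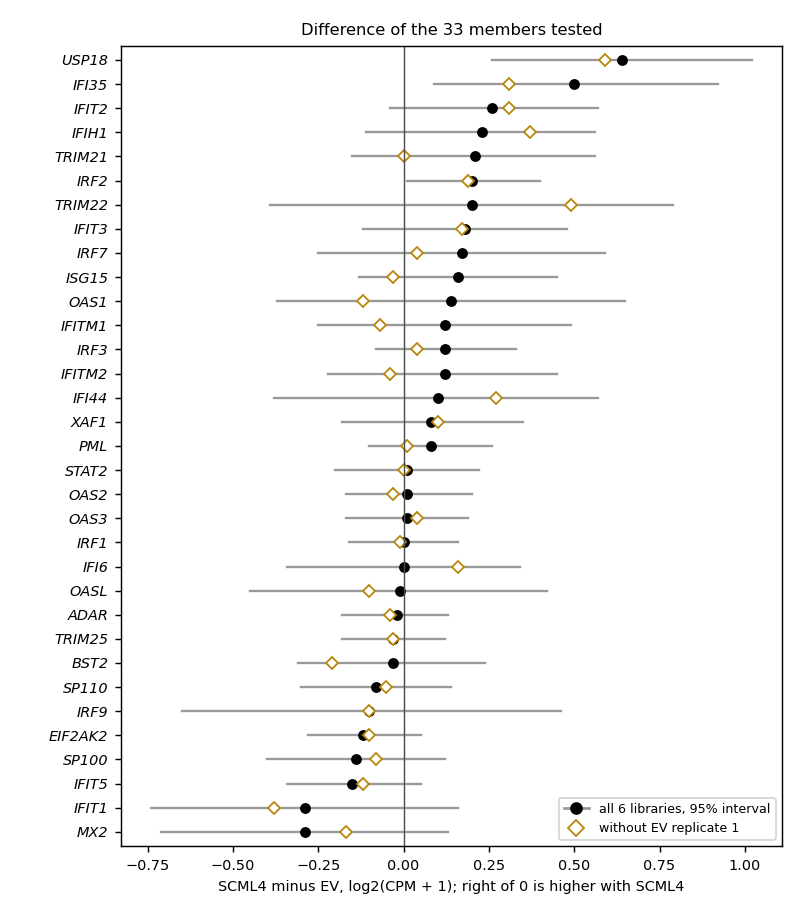
SCML4 minus EV difference on log2(CPM + 1) for the 33 members tested, ordered by size. Filled points and lines are the estimate and 95% interval with all 6 libraries, and open diamonds the estimate without EV replicate 1. The diamonds of TRIM21, ISG15, OAS1, IFITM1 and IFITM2 lie at or left of 0 where the filled points lie right of it, while USP18 is at 0.64 with all libraries and 0.59 without EV replicate 1.

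Variation between libraries of one group often exceeded counting error. The variance within a group over that expected from counting had a median of 1.35 over the members with SCML4 and 2.58 in EV, and of 1.34 between EV replicates 2 and 3 alone. Under counting alone the median of this ratio is lower for a pair of libraries than for a group of 3. The value for the pair is therefore not on the scale of the other medians. In EV it was highest for ISG15, at 33.5, and BST2, at 24.8. For EV replicates 2 and 3 alone these values were 3.42 and 0.545, while for XAF1 the value was higher for that pair, at 7.90, than for all of EV, at 3.98. In the SCML4 group the highest values were 9.79 for OAS1, 8.79 for STAT2 and 7.48 for ADAR. Relative to the mean of EV replicates 2 and 3, EV replicate 1 was lower in 20 members and higher in 12, with TRIM25 level. It was lower by 0.80 in OAS1 and 0.62 in TRIM21 and higher by 0.88 in TRIM22, in log2. Over the 33 members this deviation had a Spearman coefficient of -0.56 with the GC content of the longest transcript, as a description: the members share 1 library. Over the 13329 genes with GC content and length, the coefficient for EV replicate 1 was -0.52, and for the other libraries 0.05 to 0.30. There the deviation was taken from the mean of all 6 libraries, which is not the measure used for the members. Whether base composition accounts for the values of EV replicate 1 was not tested.

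**Figure D4:**
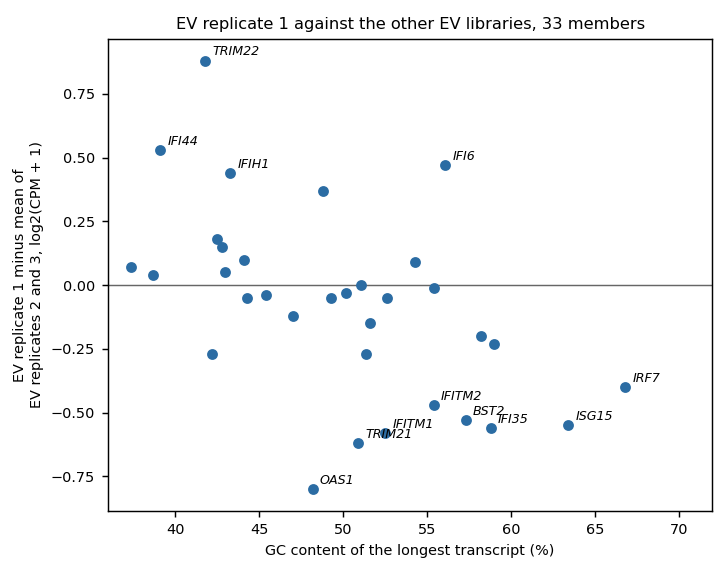
EV replicate 1 minus the mean of EV replicates 2 and 3, on log2(CPM + 1), against the GC content of the longest annotated transcript (GENCODE 29), 1 point per member tested. Members of high GC content such as ISG15 and BST2 lie below 0, and TRIM22 and IFI44, of low GC content, above 0; IFI6 is an exception.

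Of the genes upstream of the members, the interferons themselves were too low to test. Of 21 interferon genes, 19 had 0 reads in all libraries, IFNG and every listed IFNA gene included. IFNB1 had 2, 1 and 0 reads with SCML4, against 0, 1 and 2 in EV, and IFNK had 2 reads in SCML4 replicate 2 alone. The receptors and kinases, by contrast, were all detected, and 0 of 13 were called, with 4 differences above 0 and 9 below, or 7 above and 6 below without EV replicate 1. IFNAR1 averaged 111 ± 4.54 CPM with SCML4 and 116 ± 16.1 CPM in EV. The other chain of the type I receptor, IFNAR2, averaged 10.3 ± 1.12 CPM with SCML4 and 11.4 ± 0.878 CPM in EV. For the receptor of interferon gamma, IFNGR1 averaged 43.8 ± 3.19 CPM with SCML4 and 48.8 ± 1.51 CPM in EV, all SCML4 values being the lower, and IFNGR2 33.4 ± 1.27 CPM with SCML4 and 30.9 ± 2.37 CPM in EV. JAK1 had a difference of -0.01 and TYK2 one of 0.09, or 0.00 without EV replicate 1. The feedback inhibitor SOCS3 had one of -0.25.

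In the remaining lists 0 genes were called as well. Of 22 sensors and adaptors 17 were tested, 10 above 0 and 7 below (9 and 8 without EV replicate 1), with IFI16, a nuclear DNA sensor, at 519 ± 9.88 CPM with SCML4 and 557 ± 19.4 CPM in EV. The adaptor MYD88 had a difference of 0.12, or 0.05 without EV replicate 1, and TLR7, a receptor of single-stranded RNA, one of -0.25, or 0.01 without EV replicate 1. Of 33 other restriction genes 27 were tested, 17 above 0 and 10 below (18 and 9 without EV replicate 1). SAMD9, which halts translation in poxvirus-infected cells, averaged 98.1 ± 2.96 CPM with SCML4 and 114 ± 14.2 CPM in EV, a difference of -0.21 and the single one of this list at an unadjusted p under 0.05 (0.0490). Without EV replicate 1 the SAMD9 difference was -0.14, with an unadjusted p of 0.119, and SERINC5 and SAMD9L came under 0.05 instead, at 0.00372 and 0.0411, with differences of 0.23 and 0.25; these were named after their values were seen. GBP4 had a difference of 0.53 on 5 to 21 reads per library, and TRIM14 one of 0.14, or 0.04 without EV replicate 1. Of 24 other induced genes 21 were tested, 13 above 0 and 8 below, as without EV replicate 1. EPSTI1 had the smallest unadjusted p among these 130 pathway genes, 0.00864, at 7.06, 7.26 and 6.81 CPM with SCML4, against 5.71, 3.12 and 4.24 CPM in EV. Its groups did not overlap, and the difference was 0.61 (95% interval 0.18 to 1.05), with an adjusted limma-trend p of 0.866, or 0.79 without EV replicate 1, where the adjusted p was 0.255. PARP10 had a difference of 0.18, or 0.08 without EV replicate 1.

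Of the 4 other IRF and IRF2BP-family genes tested, all 4 were above 0. IRF2BPL averaged 112 ± 3.25 CPM with SCML4 and 99.2 ± 7.73 CPM in EV. IRF2BP1 had a difference of 0.13 and IRF8 one of 0.07. Without EV replicate 1 IRF2BPL had a difference of 0.12 and IRF2BP1 of -0.03, and IRF8 was at 0.00. Of 10 partners of PML nuclear bodies 4 were above 0 and 6 below (5 and 5 without EV replicate 1). DAXX, a histone H3.3 chaperone of these bodies, averaged 160 ± 5.19 CPM with SCML4 and 138 ± 12.9 CPM in EV, with no overlap. Its difference was 0.22, or 0.15 without EV replicate 1, and limma-trend gave it an unadjusted p of 0.0220 (adjusted p 0.866). ATRX, the partner of DAXX, had a difference of -0.12, or -0.03 without EV replicate 1. Over all 92 pathway genes tested outside the members, 12.0% had groups that did not overlap, against the 11.6% of all genes.

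**Figure D5:**
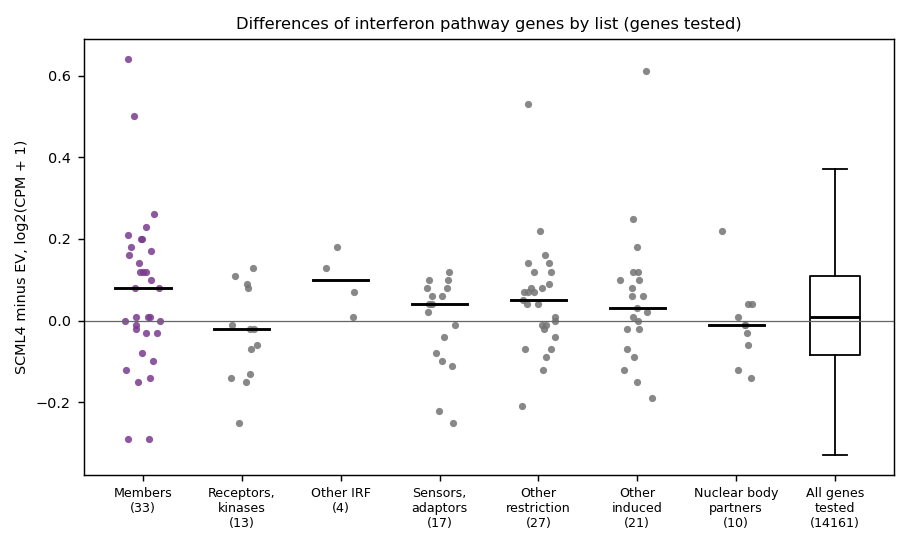
SCML4 minus EV difference on log2(CPM + 1) for the members and the other interferon pathway lists, 1 point per gene tested with the number of genes in brackets and the median as a bar. The box at the right gives the median and quartiles of all 14161 genes tested with whiskers at the 2.5 and 97.5 percentiles. Points lie on both sides of 0 in each list except the 4 genes labelled Other IRF (IRF8, IRF2BP1, IRF2BP2 and IRF2BPL), which are above it. The members' median is 0.078.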

How the data were processed

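Transcripts of 6 Jurkat libraries, 3 per group, were measured by RNA-seq; groups and replicate numbers are those of the sample titles. Per the labels' protocols, TRIzol RNA went into a SMARTer kit for mRNA libraries. The tools FastQC, STAR and SAMtools, and hg19 as build, come from what is listed per the submitters' processing notes; counter, strand setting, annotation and gene lengths are unknown, being not given in the sources used here. Deposited by the authors were FPKM, 1 column per library. Each FPKM is a whole number of reads over a length and a library total; from the steps between low values, within 0.002 of a read, reads, library totals and whole implied lengths were recovered, and 100% of the values above 0 were matched within a relative error of 1e-06. For 720 rows, IFIT1 and MX1 among them, a common divisor was seen because the length was otherwise not whole; a divisor that leaves it whole cannot be seen. In simulated FPKM of 12000 genes, 99.16% of those with 10 or more reads came out exactly. Because earlier work on these files had found the implied lengths not to be those of the named genes, levels, filter (mean of at least 10 reads) and test used CPM: limma-trend, limma 3.58.1 in R 4.3.3, on log2(CPM + 1), with Benjamini-Hochberg adjustment over 14161 genes. Levels per kilobase use GENCODE 29 exonic lengths (GRCh38), for names and lengths only.

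Members and lists were chosen with earlier results of these data known. Values per library are given for members whose groups do not overlap, the 10 of smallest unadjusted p and 14 fixed names; of each pathway list the 3 genes of smallest unadjusted p and 9 fixed names are given, and the rest by counts, means or differences; some genes these rules name are not reported here. Library weights, voom, other scalings, filters, pseudocounts, FPKM itself, GC correction, a replicate block and leaving out each library were alternatives, and voom without EV replicate 1 was added after seeing the data. The table's rows held 99.63% to 99.65% of the totals. Floors and counting intervals cover counting error only. Of the markers, TRBC1 and PECAM1 were not used here. The tests were checked on simulated counts with the same spread for all genes and no library like EV replicate 1. The check had to pass only at changes larger than that of any member, so it does not cover the differences reported here.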

Additional observations from a re-analysis of the deposited data

How the results depend on the processing

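No member and none of the other pathway genes was called under any of the 19 alternatives. The smallest adjusted p of a member was 0.368, in limma-voom with library weights. Between 1 and 5 of the members had an unadjusted p under 0.05. The 1 was without SCML4 replicate 3, where 583 of 14162 genes were under 0.05. The 5 were with library weights, where 1202 of 14161 genes, or 8.49%, were. Among all genes, the count called was 1 in the fit reported, 2 with median-of-ratios scaling or with the replicate block, 3 with quantile normalization or the GC content and length correction, 0 on log2(FPKM + 1), 14 with library weights, 11 in limma-voom without EV replicate 1, and 1 to 14 when 1 library was left out, the 14 being without EV replicate 1 and 2 being without SCML4 replicate 1 or EV replicate 3. The FPKM scale gave 781 genes at an unadjusted p under 0.05, and 0 adjusted, in limma-trend. On log2(FPKM + 1) the difference of SCML4 was 1.88, at an adjusted p of 0.0619. The replicate numbers paired no libraries (same-number correlations of -0.06, -0.12 and -0.05) and the block changed no call of a member. The median difference of members was 0.014 without a filter, 0.020 with library weights, 0.035 after the GC content and length correction, -0.014 in limma-voom without EV replicate 1, and -0.015 (without EV replicate 1) to 0.119 when 1 library was left out. Of 19 named members in the fit, 7 changed direction in some alternative, beside IRF1, which stayed between -0.02 and 0.02 and had no direction to keep. With library weights OAS1 was at -0.11 and IFITM1 at -0.05, after the GC content and length correction STAT2 at -0.01, and in limma-voom without EV replicate 1 OAS1 was at -0.14, IFITM1 at -0.08, IFITM2 at -0.05 and ISG15 at -0.03. With 1 library left out, STAT2 ranged from -0.07 to 0.11, OAS1 from -0.12 to 0.32, IFITM1 from -0.07 to 0.28, IFITM2 from -0.04 to 0.28, ISG15 from -0.03 to 0.28, BST2 from -0.21 to 0.07 and IRF9 from -0.29 to 0.14. The cause of these shifts was not tested.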

Other observations

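Several genes of interferon defence outside the members had few or 0 reads whether or not SCML4 was overexpressed. The endosomal receptors TLR8 and TLR9 and the cytidine deaminase APOBEC3A had 0 reads in every library. The cytosolic DNA sensor CGAS had 14 reads in all, AIM2 4, the Z-nucleic acid sensor ZBP1 14, and GBP2 18. STING1, the adaptor downstream of CGAS, by contrast averaged 48.8 ± 4.17 CPM with SCML4 and 47.0 ± 5.36 CPM in EV, and the RNA-sensing adaptor MAVS 263 ± 14.4 CPM with SCML4 and 249 ± 13.5 CPM in EV (mean ± SD, n = 3 each). Of the helicases that sense RNA, DDX58 (RIG-I) averaged 3.72 ± 1.10 CPM with SCML4 and 4.48 ± 1.16 CPM in EV, and DHX58 (LGP2) 30.2 ± 2.95 CPM with SCML4 and 28.6 ± 2.15 CPM in EV. RSAD2, which encodes viperin and is known as strongly interferon-induced, averaged 29.8 ± 2.77 CPM with SCML4 and 28.4 ± 2.68 CPM in EV, in the same libraries where MX1 had 2 reads in all. STING1, MAVS, DDX58, DHX58 and RSAD2 were tested and did not pass, with a smallest adjusted limma-trend p of 0.912, and the others were below the filter. These genes were chosen after their values had been seen.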
